A study of Mus musculus with 22 samples.

Results

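Macrophages can be read in bulk RNA through the genes that mark their presence and the genes that mark what they are doing. The 10 genes described here are the general mouse macrophage marker Adgre1 and 9 genes used to describe macrophage polarization: Nos2, Arg1, Mrc1, Cd163, Mgl2, Chil3, Retnla, Trem2 and Spp1. They were chosen by name and make up 10 of the 46882 genes in the expression table. Each was followed in normal skin, in cultured MC38 cells and in 4 groups of MC38 tumors, and each was also expressed as a percentage of Adgre1 in the same library, Adgre1 standing for the amount of macrophage RNA.

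The tumors were grown from MC38, a mouse colon carcinoma line, injected under the skin of the flank of female mice that were 8 to 12 weeks old. The hosts were C57BL/6N mice, called wild type here, or mice of the strain B6.129S7-Rag1tm1Mom/J, labelled RAG1-/-, which lack mature T and B cells. Wild-type tumors were taken on day 23 and day 46 and tumors labelled RAG1-/- on day 13 and day 23, with 3 tumors in each of these 4 groups. The references were 2 libraries of MC38 cells at day 0 and 2 libraries of wild-type skin at day 23. Each tumor was cut into pieces at random and 1 piece gave the RNA. Thus day 23 is the sole day at which the 2 kinds of host were both sampled, and every comparison over both days mixes host with time. Libraries were made with a 3′ end kit, so reads lie near the end of each transcript, and values are normalized counts.

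Macrophages exposed to interferon-γ and bacterial products switch on Nos2, whose enzyme makes nitric oxide from arginine. Macrophages exposed to IL-4 or IL-13 switch on Arg1, Mrc1, Mgl2, Chil3 and Retnla instead. Arg1 and Nos2 enzymes compete for the same amino acid, and in tumors the same macrophage population often carries genes of both programs, so the genes describe a range of states and not fixed cell types. Trem2 and Spp1 are used for lipid-laden and matrix-associated tumor macrophages. Several of the genes are not made by macrophages alone.

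Libraries held between 5589151 and 26134241 reads, so that 3 reads, taken here as the lowest level that can be told from 0, equalled 1.33 to 6.38 normalized counts. The sum of 22 other monocyte and macrophage genes was 993 to 1187 normalized counts in MC38 cells, 23290 to 24910 in skin and 19164 to 39189 in the 12 tumors, so every tumor library held macrophage RNA. The summed level of 6 T cell genes was 16.6 to 181 in the 6 wild-type tumors and 2.22 to 19.1 in the 6 tumors labelled RAG1-/-, with overlap between the day 46 and the RAG1-/- values. Rag1 itself had 1, 1 and 12 reads in the day 13 and 4, 1 and 4 reads in the day 23 tumors labelled RAG1-/-, against 1 read in 1 of the 6 wild-type tumors and 1 read in 1 skin library. The sources used here do not say whether this 3′ end lies outside the deleted part, so Rag1 reads do not check the labels. In bulk tissue, fewer macrophages and less RNA per macrophage cannot be told apart. The labels give the MC38 and the skin libraries as separate samples without saying that they came from separate cultures or animals, so p-values against them measure the spread between these libraries.

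The first comparison asked which of the genes were higher in tumors than in the injected cells. Reads from host cells and from tumor cells changed after injection cannot be told apart in bulk tissue, so a higher value does not name its source. All 10 genes passed the filter on low values, a mean of at least 5 normalized counts, in the main fits over the 12 tumors and over all 16 libraries. Retnla and Cd163 were the lowest in tumors, and some alternatives that fitted fewer libraries did not test them. Over the 12 tumors the mean of Retnla was 6.05, and it fell below the filter without wild-type day 46 replicate 3. MC38 cells held no read of Adgre1, Mrc1, Cd163, Mgl2, Chil3, Retnla or Trem2, and at most 4.89 normalized counts of Nos2 and 0.978 of Arg1. Against MC38 cells, 8 of the 10 genes were higher in the 12 tumors (limma, adjusted p under 0.05), where 16.5% of all 16158 genes tested were higher and 24.5% changed in either direction. The exceptions were Retnla, at a log2 difference of 1.81 with an adjusted p of 0.122, and Spp1, which the MC38 cells themselves expressed. Ratios of the mean of the 12 tumors to the level of 3 reads per library were at least 292-fold for Adgre1, at least 211-fold for Mrc1 and at least 134-fold for Trem2. Mgl2 was at least 13.8-fold, Chil3 at least 6.6-fold and Cd163 at least 4.44-fold higher. MC38 cells and skin, the pair of references, differed in all 10 genes, with Spp1 34.3-fold higher in MC38 cells and the other 9 lower, where 60.1% of all genes were called. For Nos2 that call rested on an adjusted p of 0.0449 (limma) and was lost in 9 of 13 alternatives. The call for Cd163 between tumors and MC38 cells had an adjusted p of 0.0211 and was lost without MC38 replicate 1, at 0.150, and without MC38 replicate 2, at 0.163.

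The second comparison set the tumors against skin, the tissue into which the cells were injected, and here the 10 genes split. Spp1, Trem2, Nos2 and Adgre1 were higher in tumors than in skin, and Retnla, Cd163, Mgl2, Mrc1 and Chil3 were lower, while Arg1 did not pass the test at a log2 difference of 0.30 and an adjusted p of 0.653 (limma). In this comparison 25.2% of all genes were higher, 36.6% lower and 61.8% changed in either direction, so a call alone sets none of these genes apart. Rescaling the libraries to their totals moved the median of all genes from -0.18 to 0.21 on the log2 scale, and the calls over all genes from 4073 higher and 5913 lower to 5878 higher and 4451 lower, while each member kept its direction. The sizes differed widely: the mean of the tumors was 22.9-fold above skin for Spp1, 9.86-fold for Nos2, 4.65-fold for Trem2 and 1.47-fold for Adgre1, while skin was 89-fold above the tumors for Retnla, 19.4-fold for Cd163, 7.18-fold for Mgl2, 3.68-fold for Chil3 and 2.84-fold for Mrc1. The call of Adgre1, at an adjusted p of 0.0432, was lost in 12 of 23 alternatives, among them the fits without skin replicate 1 (0.152) and 2 (0.199), 7 that left out 1 tumor (0.0538 to 0.0613), a pseudocount of 0.1, no filter and no moderation. The adjusted p of Chil3 was 0.0202, and 0.0709 and 0.199 without them. Nos2 lost its call without skin replicate 1, at 0.0579. Skin also held 13596 to 15025 normalized counts of 6 adipocyte genes and 1627 to 2823 of 5 mast cell genes, against 119 to 876 and 26.2 to 353 in the tumors, and the part of these cells in the skin values of the polarization genes was not tested.

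**Figure D1:**
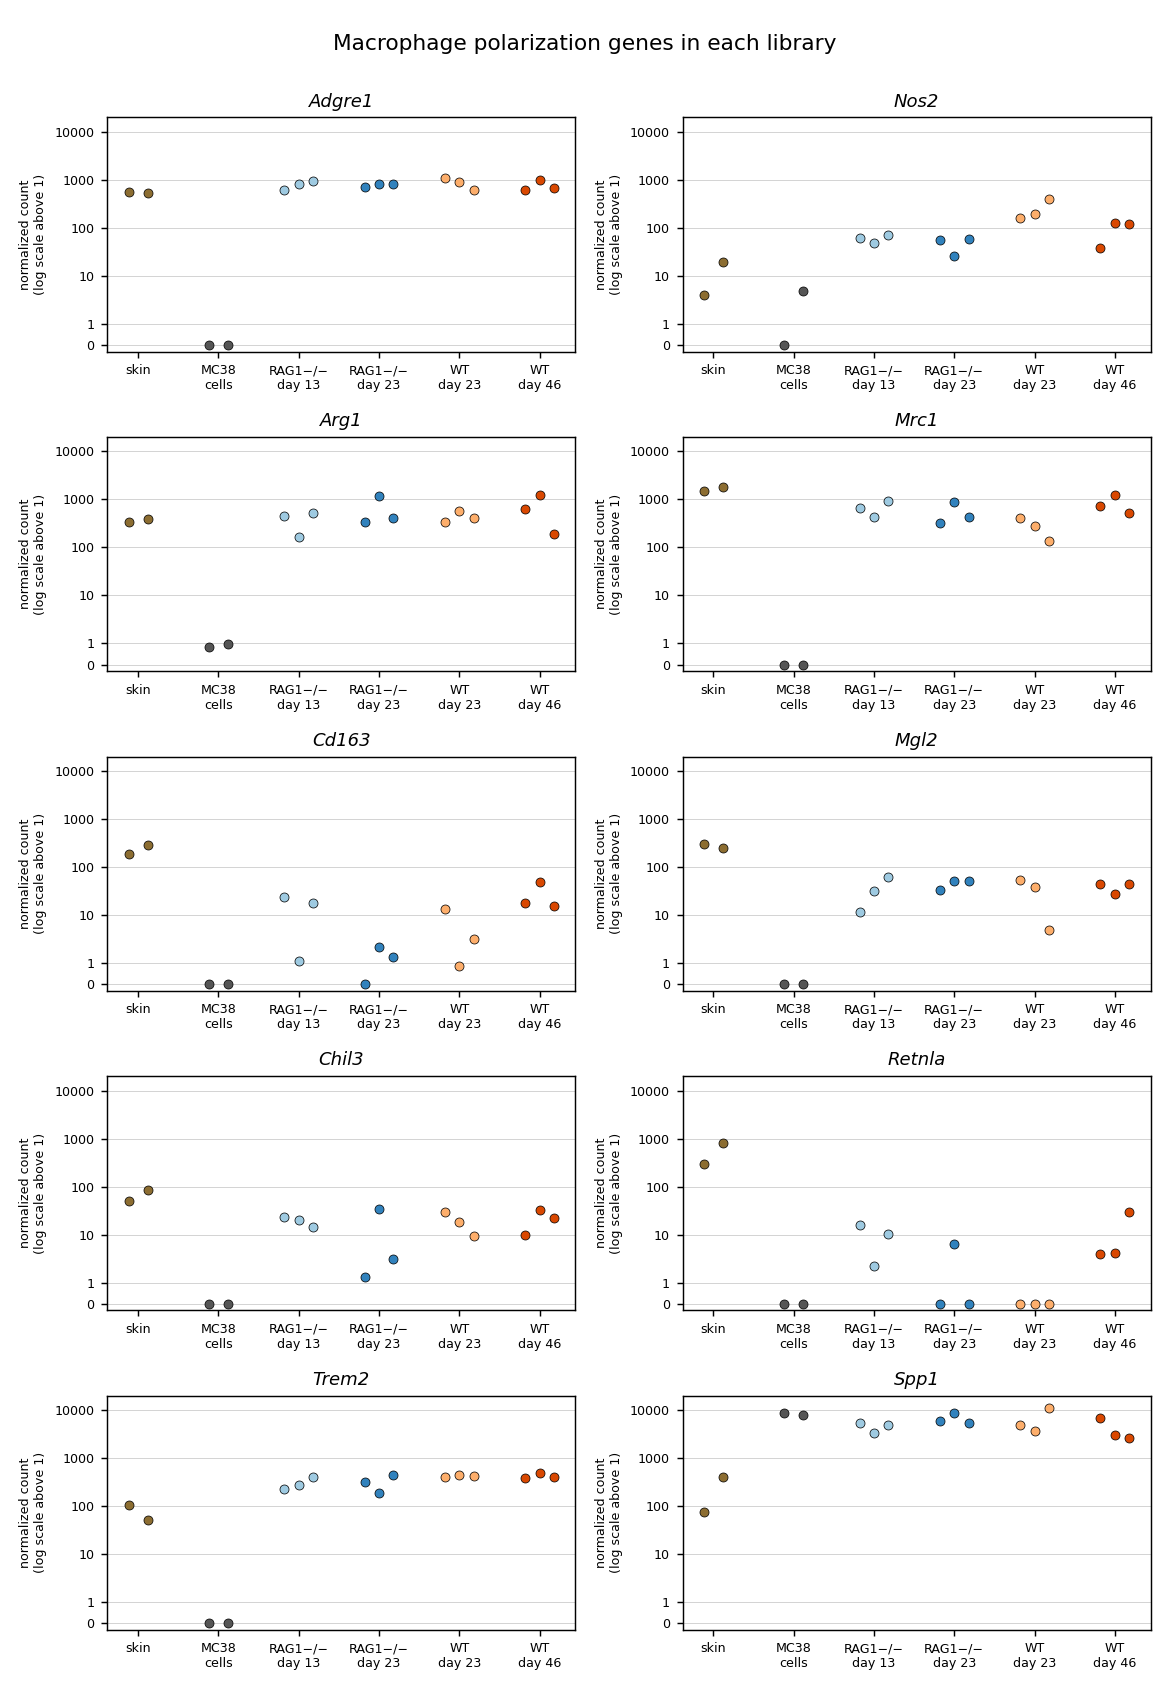
Normalized counts of the 10 genes in each of the 16 libraries, 1 panel per gene, on an axis that is logarithmic above 1 and linear down to 0; each point is 1 library, grouped as skin, MC38 cells, tumors labelled RAG1-/- at day 13 and day 23, and wild-type tumors at day 23 and day 46. Adgre1 lay between 602 and 1108 in all 12 tumors, the 3 wild-type tumors at day 23 had the highest Nos2, and Spp1 was the gene that MC38 cells expressed at the level of the tumors.

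Adgre1, which encodes the surface receptor F4/80, had the narrowest range of the genes across the tumors, as the ratio of highest to lowest value. It was at 613, 832 and 963 normalized counts in tumors labelled RAG1-/- at day 13 and at 706, 834 and 821 at day 23. It was at 1108, 909 and 618 in wild-type tumors at day 23 and at 602, 973 and 669 at day 46. The 4 groups overlapped. Skin had 557 and 535. Over both days wild-type tumors differed from tumors labelled RAG1-/- by a log2 change of 0.01 with an SE of 0.16 (limma, adjusted p = 0.994), and this sign turned when the libraries were rescaled to their upper quartile or their total. The gene lies on mouse chromosome 17 at chr17:57358691-57483527 on the plus strand (GENCODE vM21, GRCm38, the build of the files, as for all positions of genes here).

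Nos2, the inducible nitric oxide synthase (chr11:78920787-78960254, plus strand), showed the highest values in the day 23 wild-type tumors. It was at 161, 194 and 402 normalized counts in those 3 tumors and at 56.3, 25.5 and 58.3 in the tumors labelled RAG1-/- of the same day. All 3 wild-type values lay above all 3 others. The groups of 16.1% of all genes were as separate, in either direction. The ratio of means was 5.4 and the log2 difference 2.38 with an SE of 0.47 (limma, adjusted p = 0.0484), which made Nos2 the 1 member called at day 23, where 0.278% of 14746 genes were called. The exact permutation p was 0.1, the smallest that 3 against 3 tumors allow. This call was lost whenever any of the 6 tumors was left out, with adjusted p between 0.0513 and 0.207, and when the variance of each gene was not moderated across genes, at 0.263.

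The other tumor groups had lower Nos2 values. The gene was at 62.0, 48.9 and 70.5 normalized counts in tumors labelled RAG1-/- at day 13, close to the 46.7 ± 18.4 (SD, n = 3) of day 23. Wild-type tumors at day 46 had 38.1, 129 and 123. Against day 23 the wild-type groups did not overlap, and the log2 difference was -1.44 with an SE of 0.47 (limma, adjusted p = 0.444; exact permutation p = 0.1). Over both days 5 of the 6 wild-type tumors lay above all 6 tumors labelled RAG1-/-, the exception being day 46 replicate 1, and the log2 difference was 1.44 with an SE of 0.33 (limma, adjusted p = 0.0671; exact permutation p = 0.013). Thus 0 of the 10 genes passed the test over both days by limma, where 0.712% of all genes did and 1682 genes had an unadjusted p under 0.05. By edgeR and by DESeq2 on the recovered reads 1 member, Nos2, was called. In all, edgeR called 88 genes higher and 23 lower, and DESeq2 called 195 higher and 90 lower. The median log2 difference of the 10 genes was 0.08 over both days and -0.02 at day 23, beside 0.01 for all genes tested.

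Some other leukocyte genes were also higher in the day 23 wild-type tumors, and others were not. At day 23 the sum of 7 dendritic cell genes was 771 to 1211 normalized counts in wild-type and 359 to 665 in RAG1-/- labelled tumors. The 6 T cell genes were at 53.7 to 181 against 2.62 to 10.6, and 5 B cell genes at 82.4 to 292 against 8.51 to 30.5. Hosts labelled RAG1-/- lack mature T and B cells. Other sums overlapped, among them 124 to 207 against 132 to 175 for 5 natural killer cell genes. MC38 cells, with reads of Eomes alone among these 5, had 190 to 235, so this overlap does not compare natural killer cells. The 5 general leukocyte genes were at 5259 to 7680 against 4087 to 6283, and 9 neutrophil genes at 21.3 to 46.0 against 35.3 to 187. Xcr1, a marker of cross-presenting dendritic cells, was at 0 in the day 23 tumors labelled RAG1-/-. Whether dendritic, T or tumor cells carry part of the Nos2 reads was not tested.

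Genes that interferon-γ and bacterial products induce in macrophages were read beside Nos2 from a list of 18, of which 15 could be tested. At day 23 wild-type tumors had 3 of the 15 higher and 0 lower (limma), with a list median of 0.53 beside 0.01 for all genes. Of all genes tested at day 23, 0.278% were called in either direction. Cxcl9, a chemokine that attracts T cells, was at 3899, 2282 and 1982 normalized counts in the wild-type tumors and at 29.8 to 94.6 in those labelled RAG1-/-, a log2 difference of 5.54 (limma, adjusted p = 2.2e-05). Irf1, an interferon-induced transcription factor, rose by 1.07 (limma, adjusted p = 0.0438). MC38 cells had 6348.5 to 7114.4 normalized counts summed over the 18 genes, and the part of tumor cells in these differences was not tested. In the list of 20 IL-4 and IL-13 response genes 12 could be tested and 1 was higher, Tgm2, a transglutaminase, at a log2 difference of 1.65 (limma, adjusted p = 0.0303), with a list median of 0.23. The cytokine genes Il4 and Il13 were too low to be tested in tumors.

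Arg1, which encodes the arginase that consumes arginine (chr10:24915221-24927484, minus strand), spread widely within the tumor groups. It was at 446, 168 and 513 normalized counts in tumors labelled RAG1-/- at day 13 and at 335, 1194 and 403 at day 23. In wild-type tumors it was at 334, 576 and 404 at day 23 and at 638, 1217 and 186 at day 46. The day 46 group alone spanned nearly the whole range, and all 4 groups overlapped. Skin, at 334 and 400, lay inside the tumor range, while MC38 cells were near 0, giving a log2 difference of 7.88 and a ratio of means of 583 to the tumors. Arg1 passed the test in no comparison among tumor groups. Of the 8 other genes of arginine handling, 0 passed in any of the 4 comparisons of tumor groups by limma, edgeR or DESeq2, with 6 of 32 tests at an unadjusted p under 0.05 in limma. Of all 14746 genes tested, 1261 to 1722 had such a p in each of the 4 comparisons. Against MC38 cells Slc7a2, Nos3 and Ass1 were higher and Slc7a1 and Nos1 lower in tumors. Against skin, the arginine transporter gene Slc7a1 and Odc1, the first enzyme of polyamine synthesis, were higher in tumors, while Arg2, Nos1, Ass1 and Slc7a2 were lower.

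Mrc1 encodes the mannose receptor CD206, a scavenger and uptake receptor (chr2:14229392-14332057, plus strand). Its lowest values in wild-type hosts were those of day 23, at 406, 276 and 136 normalized counts, against 327, 872 and 434 in tumors labelled RAG1-/- of that day. These groups overlapped, at a log2 difference of -1.003 with an SE of 0.43 (limma, adjusted p = 0.400). At day 46 wild-type tumors had 736, 1250 and 517, each above all 3 day 23 tumors, a ratio of means of 3.06. The log2 difference was 1.65 with an SE of 0.43 (limma, adjusted p = 0.385; exact permutation p = 0.1). Tumors labelled RAG1-/- at day 13 had 673, 430 and 914. Skin exceeded every tumor, at 1507 and 1791.

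Cd163, the receptor for haptoglobin-hemoglobin complexes and a marker of resident tissue macrophages (chr6:124304656-124330527, plus strand), also had its highest tumor group mean at day 46, at far lower counts. Wild-type tumors had 13.3, 0.852 and 3.17 normalized counts at day 23 and 17.6, 49.7 and 15.7 at day 46. Those groups did not overlap and the ratio of means was 4.8, at a log2 difference of 2.39 with an SE of 0.98 (limma, adjusted p = 0.535). Tumors labelled RAG1-/- had 23.5, 1.11 and 18.1 at day 13 and 0, 2.13 and 1.33 at day 23, the latter resting on 4 reads in all. Skin had 182 and 292.

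Retnla, which encodes the secreted protein RELMα (chr16:48842551-48844461, plus strand), was at 0 in all 3 wild-type tumors at day 23. At day 46 it was at 3.91, 4.03 and 29.5 normalized counts, with a fitted log2 difference of 3.19 and an adjusted p of 0.444 (limma). The ratio of the day 46 mean to the level of 3 reads at day 23 was at least 3.93, and 1.25 without day 46 replicate 3, so it rests on that tumor. Without that tumor Retnla also falls below the filter on low values. In tumors labelled RAG1-/- it was at 16.05, 2.22 and 10.5 at day 13 and at 0, 6.38 and 0 at day 23. Skin had 289 and 788. Most tumor values lie near the detection limit, and reads of the related Retnl genes may be shared with it.

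Thus in wild-type tumors from day 23 to day 46 the listed values of the groups did not overlap for Mrc1, Cd163 and Retnla, whose day 46 values lay above, and for Nos2, whose day 46 values lay below: 4 of 10 genes, beside 12.5% of all genes tested. For Retnla this does not hold against the level of 3 reads, which was 4.75 in day 23 replicate 3 and above the values of 2 of the 3 day 46 tumors. No gene of the whole table was called in this comparison by limma or by edgeR, 26 were called higher and 17 lower by DESeq2, and 1261 had an unadjusted p under 0.05 in limma. The median log2 difference of the 10 genes was 0.23. The adipocyte sum was 156 to 220 normalized counts at day 23 and 270 to 585 at day 46, the sum of 5 endothelial genes 421 to 510 and 599 to 1135, and the mast cell sum 30.1 to 249 and 86.0 to 353, so that the first 2 of these sums did not overlap either. The sum of 5 keratinocyte genes was 381 to 1645 at day 23 and 227 to 361 at day 46, again without overlap, and that of 6 fibroblast genes 18782 to 29946 and 27441 to 48534. MC38 cells themselves had 308 to 310 of the keratinocyte sum and 4955 to 5649 of the fibroblast sum. The part of tumor cells in these 2 sums was not tested. Per Adgre1, 2 of the 6 fibroblast genes rose, Col1a1 and Col1a2 (limma), where 0.21% of all genes were called. The adipocyte genes Plin1, Cidec and Lep were at 0 at day 23. Their part in the differences of Mrc1, Cd163 and Retnla was not tested.

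The promoters of Mrc1, Cd163 and Retnla are shown because their listed values in wild-type tumors lay higher at day 46 than at day 23, though none passed the test, as 250 bases before and 50 after the annotated start, from RefSeq on GRCm38.p6 (Mrc1 chr2:14229164-14229463, Cd163 chr6:124304401-124304700 and Retnla chr16:48842359-48842658, all on the plus strand), with matches to the searched motifs in capitals.
Mrc1: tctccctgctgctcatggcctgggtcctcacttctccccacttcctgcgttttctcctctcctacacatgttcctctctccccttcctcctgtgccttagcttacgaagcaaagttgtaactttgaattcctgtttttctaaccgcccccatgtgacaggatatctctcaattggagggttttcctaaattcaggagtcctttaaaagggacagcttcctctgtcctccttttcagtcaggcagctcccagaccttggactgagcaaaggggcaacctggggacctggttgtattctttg
Cd163: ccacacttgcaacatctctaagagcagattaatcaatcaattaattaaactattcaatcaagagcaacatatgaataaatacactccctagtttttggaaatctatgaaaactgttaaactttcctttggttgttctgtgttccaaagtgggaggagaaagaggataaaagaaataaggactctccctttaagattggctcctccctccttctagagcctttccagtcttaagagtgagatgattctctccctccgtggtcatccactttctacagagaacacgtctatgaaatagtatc
Retnla: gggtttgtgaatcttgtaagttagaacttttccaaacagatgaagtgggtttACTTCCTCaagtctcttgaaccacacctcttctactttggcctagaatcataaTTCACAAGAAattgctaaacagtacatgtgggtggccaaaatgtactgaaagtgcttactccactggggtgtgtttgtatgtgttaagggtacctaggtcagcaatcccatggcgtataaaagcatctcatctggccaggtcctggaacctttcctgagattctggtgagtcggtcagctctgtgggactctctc
Both strands were searched for TTCNNNNGAA, the spacing bound by STAT6, the factor that carries the IL-4 signal, for TTCNNNGAA, the spacing of interferon-γ activated sites, and for GAGGAAGT, a strong match to the myeloid factor PU.1. The Retnla promoter held TTCACAAGAA with its first base at -145 from the start and, on the other strand, the PU.1 letters at -198. The Mrc1 and Cd163 windows held none of the 3. Among the 8 promoters listed for 7 of the members, Chil3 held a match to TTCNNNGAA at -172 and the first of the 2 Spp1 promoters a match to GAGGAAGT at -113. Of all 32851 promoters of this length, 6.95% held the STAT6 spacing, 8.3% the interferon spacing and 3.2% the PU.1 letters, and a match is a description of these letters only.

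Mgl2 and Chil3 are further genes of the IL-4 program, and neither passed the test between tumor groups. Mgl2, a galactose-binding lectin receptor of macrophages and dendritic cells (chr11:70130329-70137550, plus strand), ranged from 4.75 normalized counts in wild-type day 23 replicate 3 to 62.9 in a day 13 tumor labelled RAG1-/-, and all groups overlapped. Its near-identical neighbour Clec10a was at 4.26 to 55.7 in tumors and at 650 and 804 in skin, and the counting could have split reads between them. Skin had 295 and 251 of Mgl2. Chil3, which encodes the secreted chitinase-like protein Ym1 (chr3:106147554-106167564, minus strand), was at 23.5, 20.01 and 14.3 at day 13 and at 1.31, 34.0 and 3.09 at day 23 in tumors labelled RAG1-/-. Wild-type tumors had 29.5, 17.9 and 9.51 at day 23 and 9.77, 32.9 and 21.97 at day 46, inside the same range. Its near-identical copy Chil4 was at 0 in all 12 tumors.

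Trem2, a lipid-sensing receptor of macrophages (chr17:48346401-48354147, plus strand), was tightly grouped in wild-type tumors. It was at 406, 438 and 431 normalized counts at day 23 and at 381, 488 and 404 at day 46. Tumors labelled RAG1-/- spread further, at 228, 272 and 406 at day 13 and 316, 192 and 446 at day 23. The means were 425 ± 37.2 (SD, n = 6) and 310 ± 99.99 (SD, n = 6), and the ranges overlapped. The log2 difference over both days was 0.51 with an SE of 0.19 (limma, adjusted p = 0.302; exact permutation p = 0.0368), so the adjusted test was not passed. Skin had 107 and 51.0. Of 12 genes that go with TREM2 signalling or lipid handling, 0 passed between tumor groups by any of the 3 tools, with 5 of 48 tests at an unadjusted p under 0.05 in limma. Such a p was given to 1261 to 1722 of all 14746 genes in each comparison. Against MC38 cells 8 of these 12 were higher in tumors, among them its adaptor Tyrobp and the lipid carrier Apoe, and 1 was lower, Gpnmb. Of all genes tested 16.5% were higher there. Against skin Cd63 and Tyrobp were higher and 9 were lower, among them Lpl and Apoe, where 25.2% of all genes were higher and 36.6% lower. The part of adipocytes and other skin cells in these skin values was not tested.

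Spp1, which encodes the secreted matrix protein osteopontin (chr5:104435118-104441050, plus strand), was the member least tied to macrophages here. MC38 cells had 8517 and 7833 normalized counts, and the tumors 2622 to 10889. The log2 difference of tumors from MC38 cells was -0.70 with an SE of 0.47 (limma, adjusted p = 0.319). Spp1 from tumor cells and from macrophages cannot be told apart in these libraries. In tumors labelled RAG1-/- it was at 5266, 3401 and 4916 at day 13 and at 6001, 8582 and 5428 at day 23, groups that did not overlap, at a log2 difference of 0.56 with an SE of 0.37 (limma, adjusted p = 0.596). Groups of 19.4% of all genes did not overlap in that comparison. In wild-type tumors it was at 4986, 3717 and 10889 at day 23 and at 6745, 2988 and 2622 at day 46. Skin had 75.02 and 402. Of its exonic bases 18.8% are shared with the overlapping gene Gm42793 on the same strand. Of 6 genes for osteopontin receptors, 5 were higher in tumors than in MC38 cells (Cd44, Itgav, Itgb3, Itga4 and Itga9), where 16.5% of all genes were. Between tumor groups 0 of these 6 passed by any of the 3 tools. In limma 2 of 24 tests had an unadjusted p under 0.05, as had 1261 to 1722 of all 14746 genes in each comparison.

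**Figure D2:**
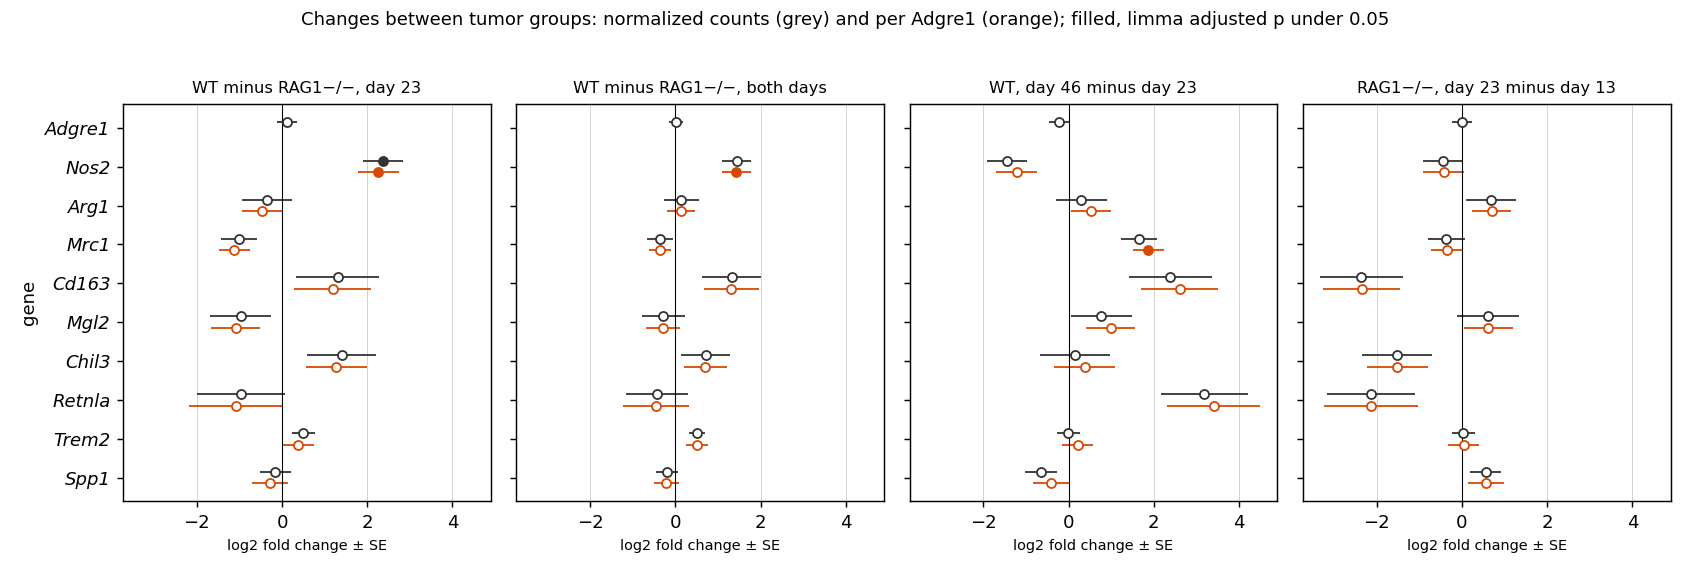
Log2 differences of the members in the 4 comparisons among tumor groups, from limma on log2(normalized count + 1), for normalized counts in grey and per Adgre1 in orange; points are estimates, bars are ± 1 SE, and filled points passed the test. Nos2 is highest in the day 23 comparison at 2.38, and Mrc1, Cd163 and Retnla lie at 1.65, 2.39 and 3.19 in the wild-type comparison of day 46 with day 23.

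The change with time in tumors labelled RAG1-/- was examined in the same way, from day 13 to day 23. The estimates were negative for Cd163, at -2.36 (adjusted p = 0.364), Retnla, at -2.14 (adjusted p = 0.439), and Chil3, at -1.52 (limma, adjusted p = 0.487). None of the 10 genes passed, and neither limma nor edgeR called any gene in the table, while DESeq2 called 89 higher and 117 lower and limma gave 1722 an unadjusted p under 0.05. The median of the 10 genes was -0.18. All 5 skeletal muscle genes fell in the fit scaled to Adgre1, and their sum was 287 to 7544 normalized counts at day 13 and 27.0 to 56.3 at day 23, so the day 13 pieces held more muscle RNA, and its part in the member values was not tested.

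Relating each gene to Adgre1 in its own library asks whether its level differed once set against the macrophage marker. In tumors labelled RAG1-/- the level of Nos2 was 7.77 ± 2.16% of Adgre1 at day 13 and 6.05 ± 2.62% at day 23 (SD over 3 tumors per group). In wild-type tumors it was 33.6 ± 27.5% at day 23, spread from 14.5 to 65.1%, and 12.7 ± 6.05% at day 46. Relative to Adgre1 the log2 difference of wild-type from RAG1-/- tumors was 2.26 with an SE of 0.49 at day 23 (limma, adjusted p = 0.0193) and 1.43 with an SE of 0.34 over both days (limma, adjusted p = 0.0273; exact permutation p = 0.0108). Nos2 was the 1 of 9 genes called in each, beside 0.427% and 0.726% of all genes. These calls were lost without wild-type day 23 replicate 3, the tumor with the highest Nos2, at adjusted p of 0.254 and 0.210, and without RAG1-/- day 23 replicate 2, at 0.118 and 0.0948. The call over both days was further lost without day 13 replicate 3 (0.0552) and without day 46 replicate 2 (0.0768) or 3 (0.0935).

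Mrc1 was lowest where Nos2 was highest. In wild-type hosts the day 23 tumors had 29.7 ± 7.34% of Adgre1 and the day 46 tumors 109 ± 28.0% (SD, 3 tumors per group). On the log2 scale this was a difference of 1.87 with an SE of 0.37 (limma, adjusted p = 0.0104; exact permutation p = 0.1) and made Mrc1 the 1 member called, where 0.21% of all genes were. The call was lost without day 23 replicate 3, at 0.0601, and without day 46 replicate 2, at 0.195. Tumors labelled RAG1-/- had 85.5 ± 30.1% at day 13 and 68.0 ± 31.9% at day 23, and skin 302 ± 45.3% (SD, n = 2). At day 23 all 3 wild-type tumors lay below all 3 tumors labelled RAG1-/-, a log2 difference of -1.12 with an SE of 0.37 that did not pass (limma, adjusted p = 0.278); 9.52% of all genes were as separate. The change with time in wild-type hosts minus that in hosts labelled RAG1-/- was 2.23 for Mrc1 on the log2 scale, with an SE of 0.52 (limma interaction, adjusted p = 0.0255, 0.488% of all genes called). This test was added after the values were seen, and the intervals compared differ, day 23 to 46 against day 13 to 23.

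Cd163 and Retnla gave larger estimates per Adgre1 from day 23 to day 46, 2.61 (adjusted p = 0.394) and 3.41 (limma, adjusted p = 0.28), with larger errors. For Mrc1, Cd163 and Retnla the listed values of the day 23 and day 46 groups did not overlap per Adgre1, as for 7.18% of all genes, with the same limit for Retnla. For Cd163 and Retnla the differences between hosts in the change with time were 4.96 and 5.54. They did not pass by limma (adjusted p = 0.0637 and 0.108), but passed by edgeR (adjusted p = 0.0241 and 0.0169) and by DESeq2 (0.0247 and 0.0248). In all they passed in 6 of 21 and 4 of 20 alternatives, with adjusted p up to 0.9997 and 0.950. Tumors labelled RAG1-/- at day 23 held 4 reads of Cd163 and 3 of Retnla in all, and wild-type tumors at day 23 held 0 of Retnla. In tumors labelled RAG1-/- 0 of 9 genes were called per Adgre1 from day 13 to day 23 by limma, edgeR or DESeq2, where limma called 0.332% of all genes and gave 822 an unadjusted p under 0.05. Without day 13 replicate 2, Cd163 passed there as lower, at -3.51 (limma, adjusted p = 0.0291). Within wild-type hosts the macrophage gene F13a1, a transglutaminase of the IL-4 list, also rose per Adgre1, from 35.4, 85.2 and 42.8 to 615, 1370 and 162 normalized counts, by 3.54 on the log2 scale (limma, adjusted p = 0.00257). Folr2, a folate receptor of resident macrophages, was lower per Adgre1 in wild-type than in RAG1-/- tumors at day 23. Its values were 11.8, 6.82 and 19.0 against 38.0, 189 and 59.2 normalized counts, and the log2 difference per Adgre1 was -2.72 (limma, adjusted p = 0.0171). F13a1 and Folr2 are single genes picked from longer lists for a low adjusted p, and they do not describe those lists. In normalized counts, not set against Adgre1, the log2 difference of F13a1 with time was 3.32 and did not pass (limma, adjusted p = 0.385). Whether the calls of F13a1 and Folr2 hold without moderation or without single libraries is not reported here.

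Each of these calls of Nos2 and Mrc1 depended on the sharing of variance between genes in limma. Subtracting Adgre1 puts the same deviation into every gene of a library, and the prior degrees of freedom rose from 7.36 to 34.5, beside 8 residual ones. With the variance of each gene taken alone, an alternative added after the values were seen, 0 members were called, and the adjusted p was 0.894 for Nos2 at day 23, 0.908 for Nos2 over both days, 0.649 for Mrc1 and 0.917 for its difference between hosts. With Adgre1 as the scaling of the recovered reads, the count tools edgeR and DESeq2, which also share information between genes, kept the calls: the adjusted p was 0.0318 and 0.00406 for Nos2 at day 23 and 0.0204 and 0.00236 for Mrc1 with time.

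**Figure D3:**
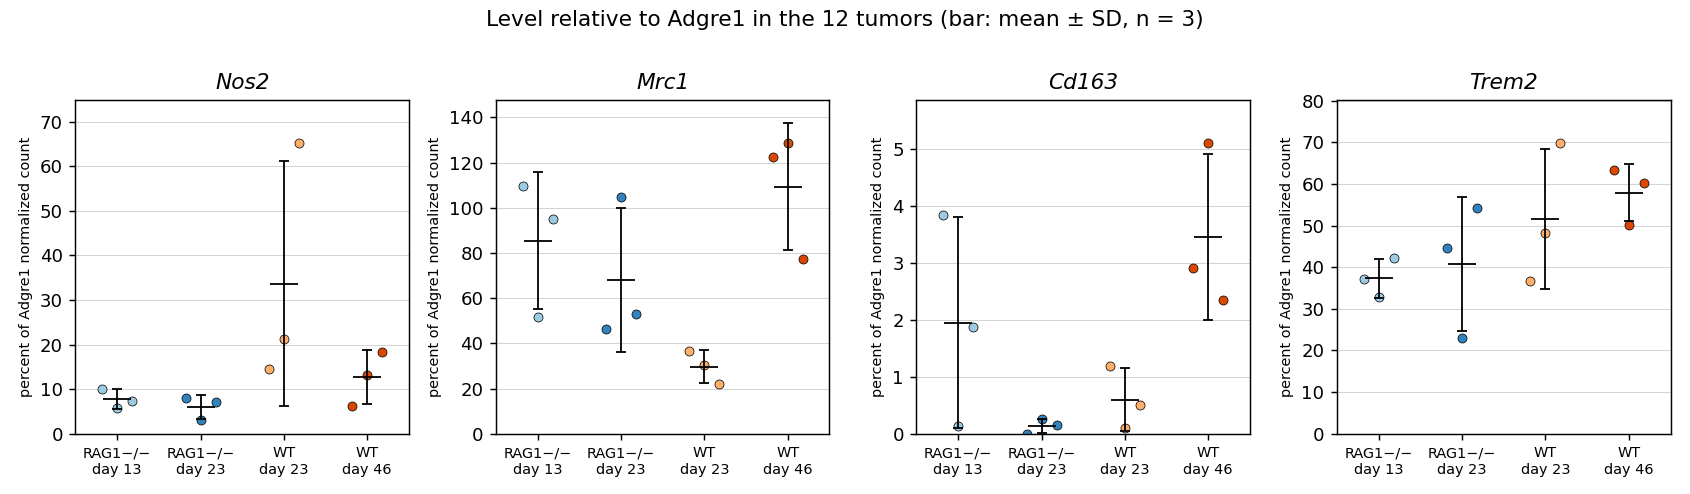
Nos2, Mrc1, Cd163 and Trem2 as a percentage of Adgre1 in the same library, 1 panel per gene on a linear axis from 0; each point is 1 tumor, and bars give the mean ± SD of the 3 tumors of a group. Nos2 reaches 65.1% in 1 wild-type tumor at day 23, and Mrc1 averages 29.7% in that group against 109% at day 46.

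Nos2 and Mrc1 were then set side by side, a pair chosen from 45 after their values were seen. Nos2 was 39.6, 70.1 and 295% of Mrc1 in wild-type tumors at day 23 and 5.18, 10.3 and 23.8% at day 46. It was 9.22, 11.4 and 7.72% at day 13 and 17.2, 2.93 and 13.4% at day 23 in tumors labelled RAG1-/-, and 0.267 and 1.07% in skin. The 3 wild-type tumors of day 23 thus stood above the 9 others. Over the 12 tumors Pearson's r of the log2 values was -0.602 (permutation p = 0.038) and Spearman's rho -0.413 (permutation p = 0.184), but r was -0.0704 without the 2 tumors farthest from the median of Nos2, both from that group, so the relation rests on them. Within the 6 wild-type tumors r was -0.735 (exact permutation p = 0.0889), and within the 6 tumors labelled RAG1-/- it was -0.245 (exact permutation p = 0.756). These p-values are not adjusted for the choice of the pair.

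No member followed Adgre1 closely across the 12 tumors. Of 9 relations the strongest was that of Mgl2, with r = 0.547 (permutation p = 0.0604, adjusted 0.544), rho = 0.441 (permutation p = 0.153) and r = 0.595 without the 2 tumors farthest from the median of Adgre1. The other 8 members had r between -0.358 and 0.341. Within the 6 tumors labelled RAG1-/- Mgl2 had r = 0.902 (exact permutation p = 0.0139, adjusted 0.125), falling to 0.582 without 2 tumors, and within the 6 wild-type tumors Chil3 had r = 0.836 (exact permutation p = 0.0667, adjusted 0.6). The 5 genes most like Adgre1 among 14745 compared over the 12 tumors were Gm10425 (r = 0.897), Dock10 (0.891), Pycard (0.884), Dram2 (0.880) and Ms4a6c (0.869). They are the highest of 14745 values and are not a measure of how the members rank. A limma fit of each gene on log2 Adgre1 called 0 of the 14745 genes. Mgl2 stood at percentile 96.45 of r.

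**Figure D4:**
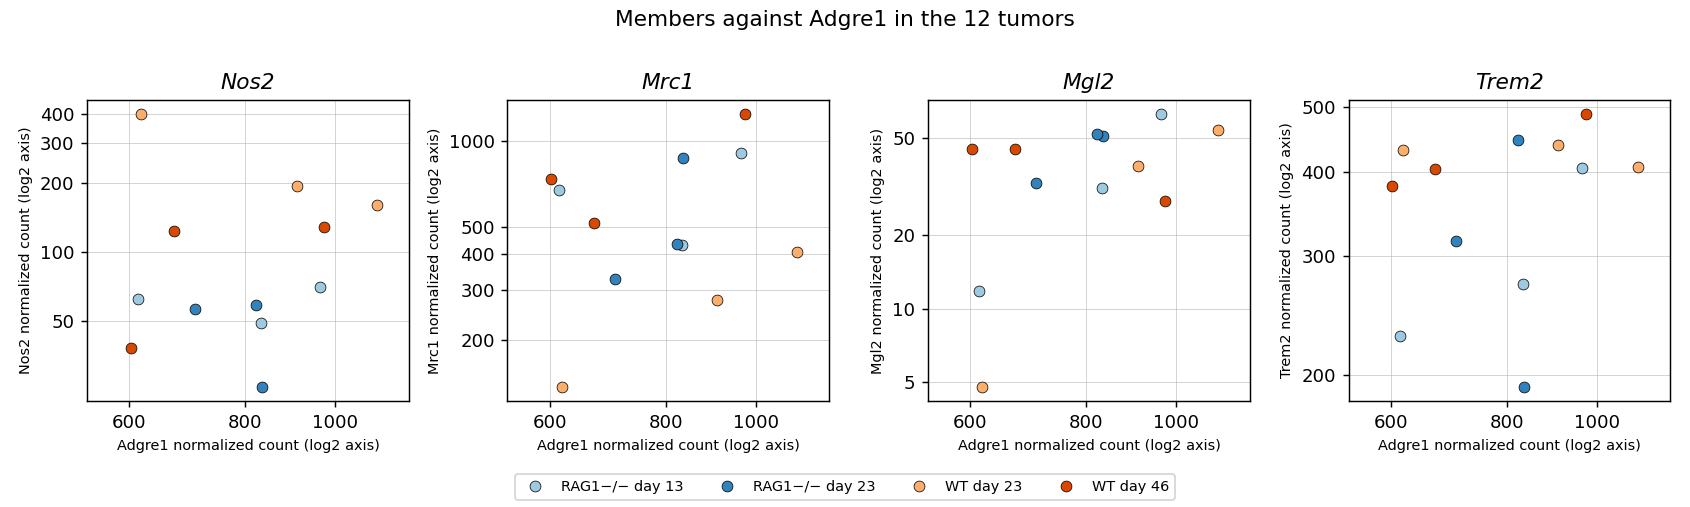
Nos2, Mrc1, Mgl2 and Trem2 against Adgre1, both axes in normalized counts on log2 axes; each point is 1 of the 12 tumors, coloured by group. Mgl2 has the strongest relation, at r = 0.547, and the 3 wild-type tumors at day 23 lie above all other tumors for Nos2.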

How the data were processed

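The authors sequenced 3′ end (QuantSeq) libraries on an Ion Proton, removed reads under 22 nt, mapped the reads to mm10 keeping the primary alignment, counted them per gene and deposited normalized counts for 46882 genes, a signal unit scaled by DESeq2 size factors. The submitters' processing notes name cutadapt, Trimmomatic, STAR, Bowtie2, HTSeq and DESeq2; versions, annotation and strand setting are not given in the sources used here. Every deposited value is a whole multiple of the value of 1 read in its library (100% within a tolerance of 0.001), so reads were recovered and depth is the total per library. Intervals of counting error were not used; precision follows from the replicates, and 3 reads served as the floor. The 16 libraries were grouped by their labels. A second table with 6 columns, from tumors given anti-PD-L1 or a control antibody, was not used here.

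Log2(normalized count + 1) of genes with a mean of at least 5 was fitted with limma 3.58.1 (trend, R 4.3.3), with 1 fit over the 12 tumors and 1 over all 16 libraries, 2-sided, adjusted by Benjamini-Hochberg over all genes tested with a threshold of 0.05. Fold changes on this scale understate the change of low genes. For the values per Adgre1, log2 Adgre1 of the library was subtracted from every gene, so the error of Adgre1 enters all genes. Single genes were tested by exact permutation (scipy 1.17.1), with a smallest p of 0.1 for 3 against 3 and 0.00216 for 6 against 6. The study tested with DESeq2; as the table is normalized, DESeq2 1.42.0 and edgeR 4.0.16 on recovered reads served as alternatives, beside other pseudocounts, no filter, other scalings, the replicate number as a block, only the groups compared, and leaving out each library; the tests of the difference between hosts in the change with time, of Nos2 against Mrc1 and without moderation were added after the data were seen. The 3 tools that compared groups across genes were tested on simulated data, and the fit on Adgre1 was not.

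The members and 19 gene lists of 160 genes were chosen with earlier results of these data known; 1 list gene, Ear11, was not in the table. Named genes are the 10 members, Rag1, up to 5 genes per list and comparison with the lowest adjusted p under 0.05, paralogs, and the 5 genes most like Adgre1; some list genes are not reported here. Same-numbered tumors came from different mice, so numbers do not pair them.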

Additional observations from a re-analysis of the deposited data

Results flagged for a closer look

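In 38 groups of 6 tumors, 1 for each gene, host and measure, the highest or lowest tumor was compared with its nearest neighbour. A gap above 0.625 of the whole range was marked, which chance does in about 1 in 20 groups drawn from 1 normal distribution. These groups pool 2 days and hold counts or percentages that were not logged, so that share need not hold here. Among the 6 wild-type tumors, Nos2 as a percentage of Adgre1 was 65.1% in day 23 replicate 3, with the next tumor at 21.3%. Cd163 was at 49.7 normalized counts in day 46 replicate 2, with the next at 17.6. Retnla was at 29.5 normalized counts and 4.41% of Adgre1 in day 46 replicate 3, with the next tumors at 4.03 and 0.649%. Among the 6 tumors labelled RAG1-/-, Arg1 was at 1194 normalized counts in day 23 replicate 2, with the next at 513. These are 5 of the 38, and the tumors differ from gene to gene except for Retnla, marked in both measures. The change of Mrc1 per Adgre1 with time differed between hosts by 2.23 on the log2 scale (limma interaction, adjusted p = 0.0255, SE 0.52); it passed in 12 of 21 alternatives, with adjusted p from 0.00251 to 0.917.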

How the results depend on the processing

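The number of members called was 0 over both days, and 1 with edgeR, DESeq2 or the replicate block (Nos2, adjusted p = 0.0477 by limma), and 0 to 1 when 1 library was left out. At day 23 it was 1, and 0 with a pseudocount of 0.1, without a filter, rescaled to the total, with edgeR, without moderation and whenever 1 library was left out (0 to 0). Per Adgre1 it was 1 over both days, and 0 with a pseudocount of 0.1, without a filter (adjusted p of Nos2 0.135) or without moderation; 1 at day 23 and 1 in wild-type tumors with time, both 0 without a filter (0.120 for Nos2, 0.0814 for Mrc1) and without moderation; leaving out 1 library gave 0 to 1 in each, and 0 to 1 in tumors labelled RAG1-/- with time. Leaving out 1 library gave 7 to 8 members against MC38 cells (8 with all), 6 to 9 against skin (9) and 9 to 10 between MC38 cells and skin (10). The replicate block, which is no pairing here because same-numbered tumors came from different mice (correlation of their deviations -0.236 to 0.246), although between RAG1-/- day 23 and wild-type day 46 each of the 3 former tumors correlated best with its own number (0.105 to 0.2085), changed no other count. The fit of only the groups compared is the same as the reported one over both days and was not run again. Of 2043 recomputed values of 139 single-gene results, 1912 kept direction and side of the threshold, 66 lost and 15 gained a call and 50 changed sign, none of these past the threshold; their cause was not tested. The log2 differences that changed sign were Adgre1 over both days (-0.00092 by upper quartile, -0.0011 by total), Trem2 rescaled to the total with time (0.024 in wild-type, -0.083 in RAG1-/- tumors), and Spp1 per Adgre1 by edgeR and DESeq2 (0.038 and 0.039 over both days, 0.044 and 0.045 at day 23). When 1 library was left out, those over both days ran from -0.096 to 0.123 for Adgre1, -0.159 to 0.516 for Arg1, -0.594 to 0.219 for Mgl2 and -0.791 to 0.0426 for Retnla; at day 23 from -0.0666 to 0.354 for Adgre1, -0.698 to 0.216 for Arg1, -1.592 to 0.0346 for Mgl2 and -0.603 to 0.172 for Spp1; in wild-type tumors with time from -0.306 to 1.044 for Arg1, -0.242 to 1.384 for Mgl2, -0.241 to 0.614 for Chil3 and -0.115 to 0.0628 for Trem2; in RAG1-/- tumors with time from -0.189 to 0.136 for Adgre1 and -0.253 to 0.355 for Trem2. Per Adgre1 they ran over both days from -0.133 to 0.477 for Arg1, -0.507 to 0.0959 for Mgl2 and -0.817 to 0.0142 for Retnla; at day 23 from -0.743 to 0.0515 for Arg1 and -0.957 to 0.0963 for Spp1; with time from -0.0084 to 0.454 for Trem2 and -0.986 to 0.257 for Spp1 in wild-type and from -0.213 to 0.406 for Trem2 in RAG1-/- tumors. Depth limits Retnla and Cd163, which had fewer than 3 reads in several tumors.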

Other observations

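Other gene groups of the macrophage lists split between tumors and skin. Of 20 IL-4 and IL-13 response genes 14 could be tested over all libraries, and 12 were lower in tumors than in skin and 0 higher (limma), with a list median of -2.82 beside -0.18 for all genes. Of all genes tested 25.2% were higher and 36.6% lower in this comparison, and the counts of each list are to be read against these shares. The lowest adjusted p among them belonged to Egr2, Clec10a, Cd36, Pparg and Irf4. Skin held 13596 to 15025 normalized counts of the 6 adipocyte genes, against 119 to 876 in tumors. The part of adipocytes and other skin cells in the skin values of this list was not tested. Of the interferon-γ and bacterial product list 7 of 15 were higher and 2 lower in tumors, with a median of 0.78. The higher ones included Irf1, Il1b, Cxcl10 and Ptgs2. MC38 cells themselves had 6348.5 to 7114.4 normalized counts of this list, against 3848.6 to 6273.3 in skin. Their log2 difference from skin was 6.15 for Ptgs2, 0.10 for Cxcl10 and -0.075 for Irf1, but -5.49 for Il1b. The part of tumor cells in the tumor values was not tested. Of 20 monocyte and macrophage identity genes tested, 8 were higher in tumors, led by Cx3cr1 and Cd14 and with the complement genes C1qa, C1qb and C1qc, and 6 were lower, among them Maf, Ly6c2, Mertk, Folr2 and Lyve1. Cd14 in MC38 cells did not differ from skin, while Cx3cr1 was lower there by -3.86 on the log2 scale.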
